A study of Mus musculus with 16 samples.

Results

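The Eif genes encode the eukaryotic translation initiation factors, together with the kinases and binding proteins that were named after them. They were taken as every gene of the expression matrix whose name begins with Eif and a digit, pseudogenes named with -ps left out, and the rule used no measured value. It gave 54 of the 17883 genes in the matrix. Of these, 52 reached the minimum level for testing. Eif3j2, with 1 read over the 6 input libraries, and Eif4e1b, with 0, did not.

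Initiation brings the small ribosomal subunit, loaded with the initiator tRNA, to the capped end of an mRNA and moves it to a start codon. The cap is bound by eIF4E, which the scaffold eIF4G joins to the helicase eIF4A. The large complex eIF3 bridges eIF4G and the small subunit, eIF2 delivers the initiator tRNA, and eIF1, eIF1A, eIF5 and eIF5B set the start codon and the joining of the large subunit. Cells lower initiation mainly by phosphorylating the alpha subunit of eIF2 or by freeing the eIF4E-binding proteins, which compete with eIF4G for eIF4E, when the kinase mTORC1 is less active.

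The study sequenced adipose tissue of C57BL/6 mice aged 8 weeks and asked about METTL3, the methyltransferase that writes N6-methyladenosine (m6A) on mRNA, in beiging. Mice named cKO cold carried METTL3 flox/flox and Adipoq-Cre +/- and were housed singly at 4 °C for 7 days. WT cold mice carried METTL3 flox/flox without Cre and had the same cold. WT RT mice carried METTL3 flox/flox and were labelled RT and untreated. All groups thus carried the floxed allele, and the Cre acts in adipocytes, so other cells of the tissue keep METTL3. Total RNA (input) and RNA captured with an antibody to m6A were sequenced from all 3 conditions, and ribosome-protected fragments (footprints) from cKO cold and WT cold. Each group held 2 libraries. Nothing in the labels states that these 2 were separate animals, and the p-values therefore reflect the spread of the libraries alone, which may be technical.

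Values were deposited by the authors as RPKM, reads scaled to gene model length and library total, in which genes can be compared per length. Reads on the listed genes ran from 3895031 to 8673393 in input, from 4883129 to 6426541 in m6A and from at least 1676208 to 2461267 in footprint libraries. All 12 adipocyte markers were above 0 in every library. Mettl3 stood at 3.83 and 1.90 RPKM in cKO cold inputs, against 5.24 and 3.66 RPKM in WT cold inputs and 10.8 and 9.27 RPKM in WT RT inputs, so the genotypes lay close together and the higher cKO library overlapped WT cold. The cellular make-up differed between groups. The 16 T and B cell markers in the matrix summed to 10.5 to 10.7 RPKM in cKO cold inputs, 1.28 to 2.45 RPKM in WT cold inputs and 997 to 1080 RPKM in WT RT inputs. The 18 macrophage markers summed to 793 to 1650 RPKM in cKO cold, 188 to 194 RPKM in WT cold and 824 to 931 RPKM in WT RT inputs, and thermogenic markers to 280 to 302, 1810 to 2310 and 190 to 265 RPKM in the same order of groups. In such bulk samples, fewer cells of a type and less RNA per cell cannot be told apart. Library codes of WT RT belong to another series than those of the cold groups, so the effects of temperature and of code series cannot be separated or told apart.

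Eif genes took 0.501% and 0.554% of input reads in cKO cold, 0.447% and 0.448% in WT cold and 0.581% and 0.573% in WT RT. The shares of the 3 conditions did not overlap. Averaged over the 6 inputs, the most abundant per length were Eif1, a guardian of start codon choice (154.5 RPKM), Eif4a1, the main eIF4A helicase (142.4 RPKM), Eif5a, which helps ribosomes through difficult peptide bonds (140.8 RPKM), and Eif4g1, the main scaffold (123.9 RPKM). Eif4a2, the second eIF4A helicase, followed at 85.6 RPKM.

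Levels within a complex were uneven. Subunits of eIF3 ran from 71.7 RPKM for Eif3h to 29.4 RPKM for Eif3m, apart from Eif3j1 at 4.01 RPKM, an accessory subunit whose near copy Eif3j2 can share its reads. The eIF2 subunits stood at 13.2 RPKM for Eif2s1 (alpha), 25.3 RPKM for Eif2s2 (beta) and 31.3 and 25.6 RPKM for Eif2s3x and Eif2s3y, the X- and Y-linked genes of the gamma subunit. The 4 kinases that phosphorylate eIF2 alpha lay between 6.72 RPKM for Eif2ak4 (GCN2, a sensor of amino acid shortage) and 11.1 RPKM for Eif2ak1 (HRI, a heme sensor). The cap-binding protein gene Eif4e averaged 9.55 RPKM in input, below its relatives Eif4e2 at 14.8 RPKM and Eif4e3 at 38.2 RPKM. In footprints Eif4e lay above both, at 98.3 to 176.6 RPKM, against 39.1 to 66.4 RPKM for Eif4e2 and 45.2 to 76.7 RPKM for Eif4e3. The 4E-binding protein genes Eif4ebp2 and Eif4ebp1 averaged 47.2 and 30.6 RPKM.

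**Figure D1:**
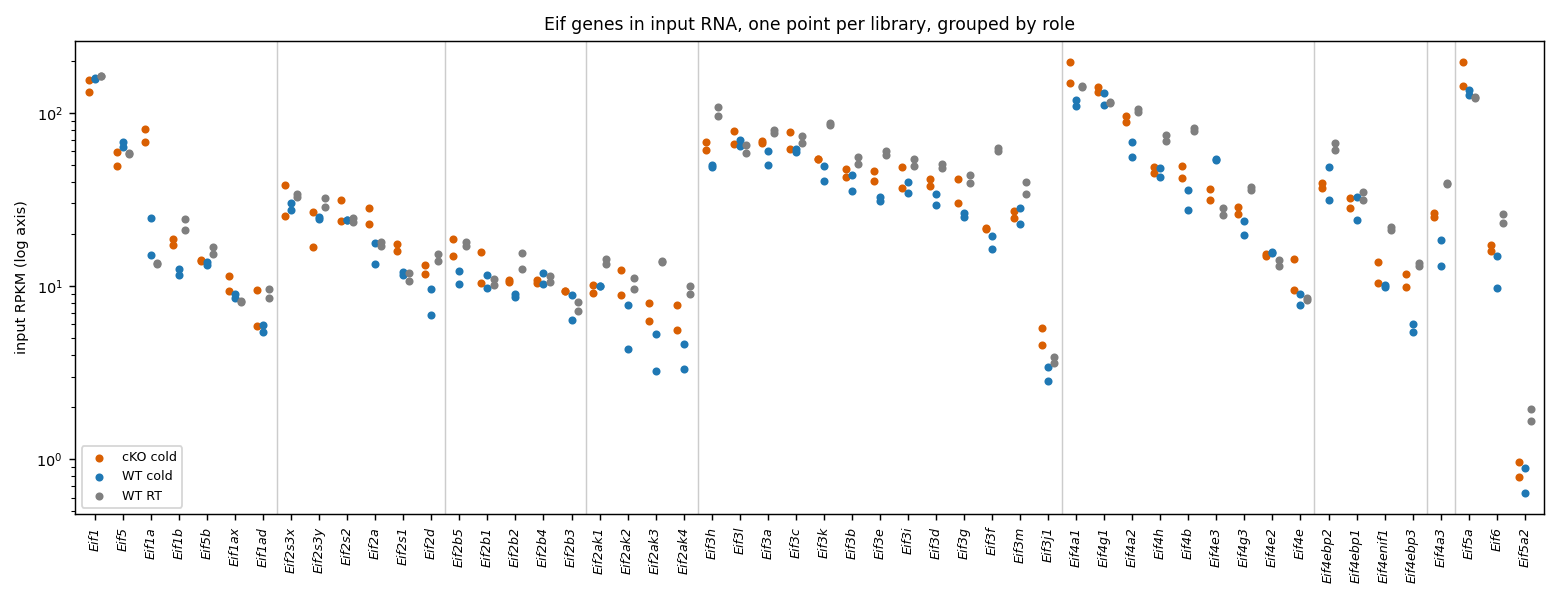
Input RPKM (log axis) of the Eif genes with reads, 1 point per library, in cKO cold, WT cold and WT RT, grouped by role with grey lines between roles. Eif1, Eif4a1, Eif5a and Eif4g1 lie above 100 RPKM in every library, while Eif5a2 lies below 2 RPKM.

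In the cold, Eif genes of WT mice were mostly lower per RPKM than in WT RT, as were genes in general, and on the deposited scale Eif4e3 was the one called higher. Of 52 members, 1 was higher in WT cold, where 6.52% of all 12667 genes tested were higher, and 26 were lower, where 51.2% of all genes were (limma, adjusted p under 0.05 over all genes). Eif5a2, 1 of the 26, was tested only through the WT RT inputs, where it was high. The median log2 fold change of RPKM + 1 was -0.48 over the members and -0.67 over all genes, and 33 members lay above the median gene. The split depended on the scaling: with median-ratio scaling, which brings the median gene to -0.05, 16 members were higher and 4 lower (19.1% and 20.2% of all genes), and with quantile scaling 13 were higher and 9 lower (21.5% and 18.3%). Without WT RT input replicate 1 or 2, 14 and 13 members were called.

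Eif4e3, a cap-binding relative of eIF4E, had 53.7 and 53.7 RPKM in WT cold, against 25.6 and 28.1 RPKM in WT RT. The groups were well apart and the 2 WT cold libraries were nearly equal. It rose by 0.98 ± 0.14 on the log2 scale (standard error, n = 2 libraries per group, limma adjusted p = 0.0013), which was 1.64 above the median gene. Eif4e2, another cap-binding relative, showed 0.18 ± 0.14 and Eif4e itself -0.01 ± 0.22, and neither passed.

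4 members were lower under all 3 scalings and without each library in turn: Eif3f, Eif2ak3, Eif4b and Eif4a3. Eif3f, a subunit of eIF3, had 19.3 and 16.2 RPKM in WT cold, against 62.9 and 60.2 RPKM in WT RT. Its libraries were far apart between groups, and it fell by 1.74 ± 0.14 (limma adjusted p = 0.00018), or -1.07 relative to the median gene. Eif2ak3 encodes PERK, the eIF2 alpha kinase of the stressed endoplasmic reticulum. It had 5.26 and 3.23 RPKM in WT cold, against 13.8 and 13.9 RPKM in WT RT, without overlap, and fell by 1.52 ± 0.24 (limma adjusted p = 0.00223).

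Eif4b encodes a cofactor that stimulates the eIF4A helicase. It had 27.4 and 35.6 RPKM in WT cold, against 82.2 and 78.3 RPKM in WT RT. The groups did not overlap, and it fell by 1.33 ± 0.16 (limma adjusted p = 0.000832). Eif4a3 encodes the helicase of the exon junction complex, which marks spliced mRNA and is no initiation factor of the cap complex. It had 18.4 and 13.1 RPKM in WT cold, against 39.3 and 38.7 RPKM in WT RT, again apart, and fell by 1.27 ± 0.18 (limma adjusted p = 0.00137).

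The promoters of these 4 genes, chosen because they were lower in WT cold, are given from the RefSeq table for build GRCm38.p6. Each covers 100 bases before and 30 bases from an annotated start. Capitals mark the longest unbroken run of C and T near the start. Many mRNAs of the translation machinery begin with such a run, the terminal oligopyrimidine tract through which mTORC1 controls them. Eif3f (chr7:108934315-108934444, plus strand) holds a run of 15 bases, and the runs of Eif4b (chr15:102073673-102073802, plus strand), Eif4a3 (chr11:119300014-119300143, minus strand) and Eif2ak3 (chr6:70844415-70844544, plus strand) hold 7, 5 and 5 bases.
Eif3f: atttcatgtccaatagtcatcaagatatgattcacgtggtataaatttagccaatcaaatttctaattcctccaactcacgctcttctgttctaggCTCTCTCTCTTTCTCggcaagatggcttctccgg
Eif4b: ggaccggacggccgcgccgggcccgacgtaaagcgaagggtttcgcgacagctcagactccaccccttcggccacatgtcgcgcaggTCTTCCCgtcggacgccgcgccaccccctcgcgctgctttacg
Eif4a3: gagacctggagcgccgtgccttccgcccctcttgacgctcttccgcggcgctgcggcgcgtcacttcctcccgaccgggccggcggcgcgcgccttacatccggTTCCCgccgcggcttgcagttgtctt
Eif2ak3: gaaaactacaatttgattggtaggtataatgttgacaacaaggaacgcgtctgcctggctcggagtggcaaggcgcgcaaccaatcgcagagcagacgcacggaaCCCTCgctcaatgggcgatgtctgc

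Promoters were found for 43 members, and a run of at least 8 C or T bases lay within 20 bases of the start in 11 of them (25.6%), against 19.9% of the 13952 genes with a promoter. These were Eif2ak4, Eif2b2, Eif2b5, Eif2s3x, Eif2s3y, Eif3f, Eif3k, Eif3l, Eif3m, Eif4e and Eif4enif1. A gene counted if any of its annotated starts qualified, and Eif2ak4, Eif4e and Eif4enif1 qualified at some of their starts only. Runs did not have to begin at the start itself (base 14 in Eif3k), so they need not be terminal tracts. Any start also sufficed for the motifs that follow. From 250 bases before to 50 bases after the start, on either strand, the E-box CACGTG, a site that Myc and related factors can bind, was in 10 member promoters (23.3%, against 10.1% of all). The letters AAGATGGC, the core of an element found at the start of genes with very short leaders, were in 5 (11.6%, against 4.09%), Eif3f among them. Such matches describe letters and show no binding.

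Beyond these, the eIF3 genes, the largest of the roles, had the most calls in the cold. Of 13 eIF3 members tested, 9 were lower and 0 higher (limma), where 51.2% and 6.52% of all genes were. Their median was -0.51, against -0.67 over all genes. With median-ratio scaling Eif3f alone was lower and 2, Eif3c and Eif3l, were higher (20.2% and 19.1% of all genes). That scaling turned 5 of the 9, Eif3a, Eif3b, Eif3d, Eif3g and Eif3m, to positive values, with Eif3b at 0.32 against -0.42 on the deposited scale. Eif3h, another eIF3 subunit, had 49.8 and 48.4 RPKM in WT cold, against 107.5 and 96.0 RPKM in WT RT, without overlap, and fell by 1.04 ± 0.13. Eif3k and Eif3e fell by 0.93 ± 0.14 and 0.85 ± 0.13. Eif3a, the scaffold of the complex, fell by 0.49 ± 0.13 and stood at 0.25 with median-ratio scaling.

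Kinases and 4E-binding proteins held further lower members, beside the 51.2% of all genes that were lower. Of the 4 kinases, 3 were lower: Eif2ak3 above, Eif2ak1, and Eif2ak4, which fell by 1.09 ± 0.23. With median-ratio scaling Eif2ak3 was the 1 lower kinase. Eif2ak1, at -0.44 and a limma adjusted p of 0.0491, stood at 0.26 with median-ratio and 0.30 with quantile scaling. With a term for replicate number its limma adjusted p was 0.0728. Eif2ak2, the kinase PKR that senses double-stranded RNA, showed -0.74 ± 0.28 and did not pass (limma adjusted p = 0.061). Of the 4 genes of 4E-binding proteins, 3 were lower, and 0 with median-ratio scaling. Eif4ebp3 fell by 1.09 ± 0.17, Eif4enif1, which carries eIF4E into the nucleus, by 1.03 ± 0.18, and Eif4ebp2 by 0.69 ± 0.21, the last at 0.04 with median-ratio scaling. Eif4ebp1, a target of mTORC1, had 24.0 and 32.8 RPKM in WT cold, against 34.8 and 31.5 RPKM in WT RT, which overlapped (-0.23 ± 0.18). Eif4ebp3 lies beside another gene, so its reads may be shared.

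Members of the tRNA-carrying and start-codon steps were mostly not called on the deposited scale. With median-ratio scaling 0 were lower and several higher, where 20.2% and 19.1% of all genes were. The higher ones were 2 of the 6 eIF2 members, 3 of the 5 eIF2B members and 5 of the 7 start-codon and joining members. Among 6 eIF2 subunits and alternative tRNA carriers, only Eif2d, an alternative carrier, was lower (-0.78 ± 0.20). Eif2s1 showed 0.06 ± 0.15, Eif2s3x -0.21 ± 0.20 and Eif2s3y -0.28 ± 0.22. Of the 5 subunits of eIF2B, the factor that recharges eIF2 with GTP, Eif2b2 and Eif2b5 were lower at -0.61 ± 0.17 and -0.60 ± 0.17, but stood at 0.08 and 0.11 with median-ratio scaling and at 0.14 and 0.11 with quantile scaling. Of 7 members of the start-codon and joining group, only Eif1b, a near copy of Eif1, was lower (-0.85 ± 0.15). Eif1 had 158 and 156 RPKM in WT cold, against 162 and 163 RPKM in WT RT (-0.05 ± 0.13). With median-ratio scaling Eif1 was higher at 0.70, Eif5 at 0.91 and Eif1a at 1.19 (limma adjusted p = 0.00654, 0.0042 and 0.00496), against 0.17 for Eif5 and 0.49 for Eif1a on the deposited scale.

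In the cap complex Eif4a2 fell by 0.73 ± 0.14, Eif4g3, a second scaffold gene, by 0.73 ± 0.15 and Eif4h, another eIF4A cofactor, by 0.64 ± 0.13, while Eif4a2 stood at 0.01 and Eif4h at 0.10 with median-ratio scaling. Eif4a1 and Eif4g1 did not pass, at -0.31 ± 0.15 and 0.07 ± 0.13, and Eif4g1 was higher at 0.82 with median-ratio scaling. Eif6, which keeps the ribosomal subunits apart until they are used, fell by 0.97 ± 0.21. Eif5a2, a low-level relative of Eif5a, was lower by 0.67 ± 0.21, turning to 0.16 with quantile scaling. On the deposited scale Eif5a2 reached 1 RPKM in the WT RT inputs alone. It was thus tested only through the group where it was high, and its call is no support. Eif5a showed 0.09 ± 0.16 and did not pass, but was higher at 0.83 with median-ratio scaling. In the same comparison 16 of 16 tested T and B cell markers and 10 of 16 macrophage markers fell, beside 51.2% of all genes. The part of these immune markers in the results was not tested.

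**Figure D2:**
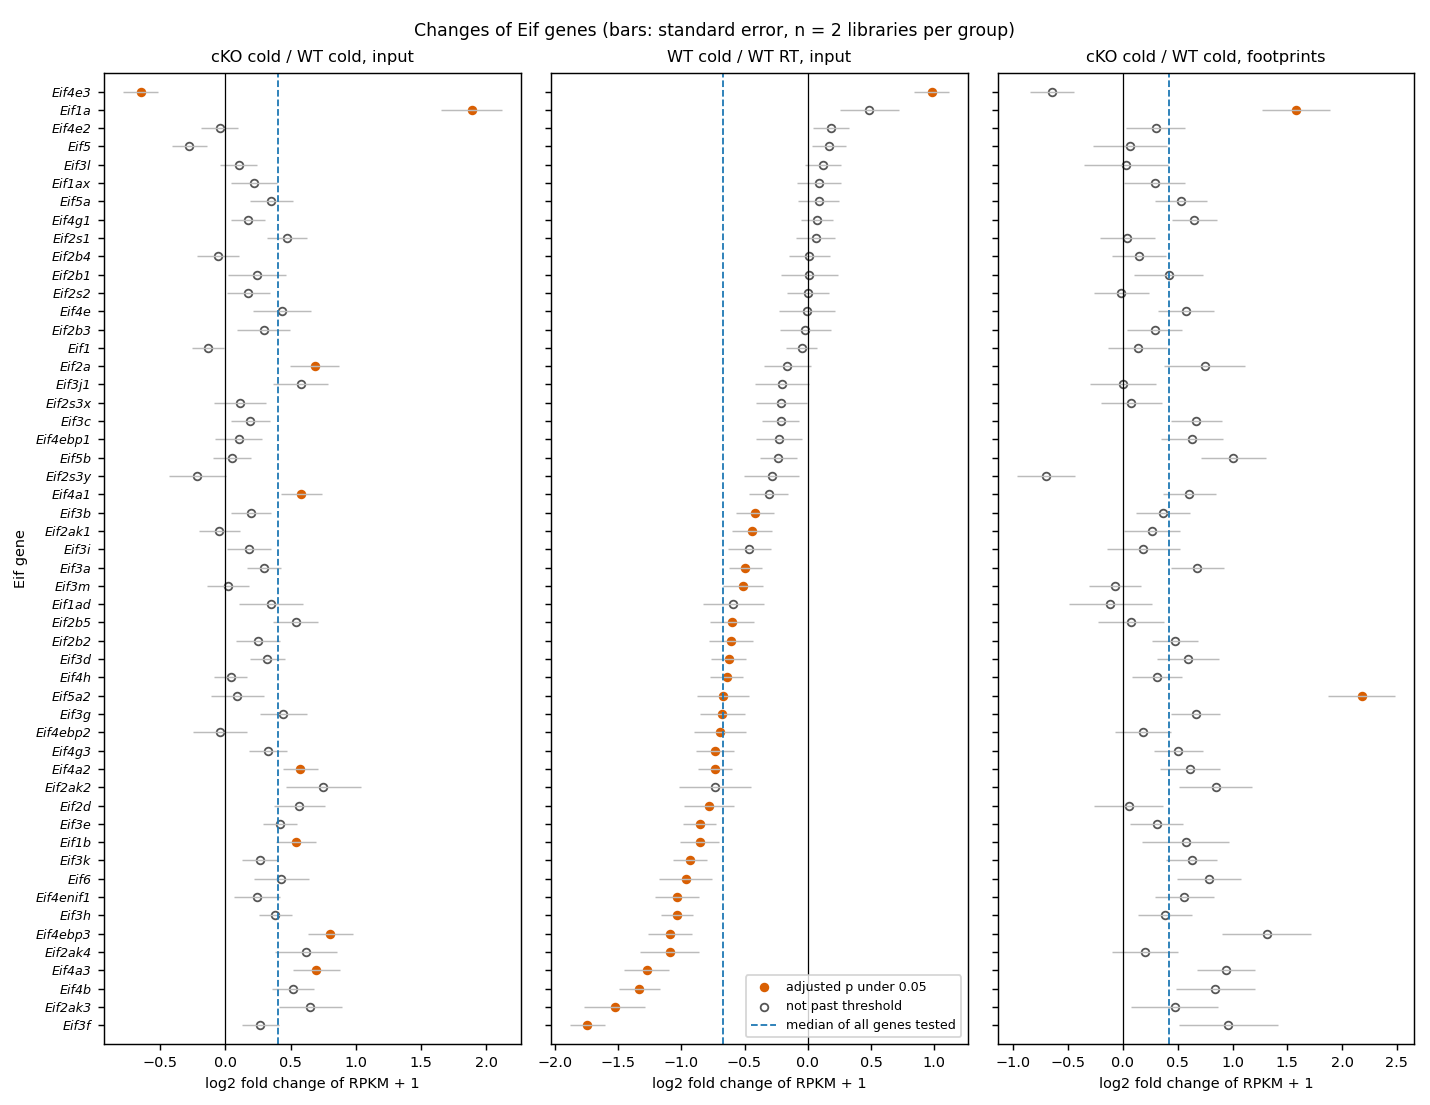
Log2 fold change of RPKM + 1 (x axis, bars standard error, n = 2 libraries per group) of each tested Eif gene for cKO cold over WT cold input, WT cold over WT RT input and cKO cold over WT cold footprints, ordered by the middle panel; filled points passed an adjusted p of 0.05 and the dashed line is the median of all genes. Eif1a stands out on the right in both panels of cKO against WT cold, and Eif4e3 is on opposite sides of 0 in the 2 input panels.

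In cKO cold against WT cold, the comparison of genotype within the cold, Eif1a rose more than any other Eif gene and Eif4e3 fell. Of 52 members, 7 were higher in cKO cold, where 23.6% of all genes were higher, and 1 was lower, where 2.92% were lower (limma, adjusted p under 0.05). The median log2 fold change was 0.28 over the members and 0.40 over all genes. With median-ratio scaling 1 member was higher and 3 lower (6.09% and 6.95% of all genes), and with quantile scaling 1 was higher and 1 lower (6.08% and 5.34%). Without WT RT input replicate 1 or 2, which share the estimate of spread, 1 member was called each time. Without WT cold replicate 2, cKO cold replicate 1 or cKO cold replicate 2 the number was 4, 5 and 3.

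Eif1a encodes eIF1A, which holds the scanning small subunit open. It had 68.0 and 80.6 RPKM in cKO cold inputs, against 24.6 and 15.0 RPKM in WT cold inputs, with 13.4 and 13.5 RPKM in WT RT inputs. Both cKO libraries lay far above all 4 WT libraries. It rose by 1.89 ± 0.23 (limma adjusted p = 0.00519), 1.49 above the median gene, by 1.41 and 1.47 with median-ratio and quantile scaling, and passed without each library in turn (limma adjusted p up to 0.0265). Its X-linked near copy Eif1ax had 9.30 and 11.5 RPKM in cKO cold, against 8.94 and 8.51 RPKM in WT cold, and did not pass (0.22 ± 0.18). The authors' assignment of reads between the copies is not given in the sources used here, so values of either are uncertain.

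Eif4e3 had 31.5 and 36.4 RPKM in cKO cold, against 53.7 and 53.7 RPKM in WT cold, without overlap. It fell by 0.65 ± 0.14 (limma adjusted p = 0.0175), -1.05 relative to the median gene, and was lower under all 3 scalings. The call was lost in 4 of the 6 fits that left out 1 library (WT RT replicate 1 or 2, WT cold replicate 2, cKO cold replicate 1), with a limma adjusted p up to 0.0583. In cKO cold against WT RT it showed 0.33 and did not pass. The thermogenic markers moved the same way as Eif4e3. In WT cold 12 of 12 were higher than in WT RT (6.52% of all genes). In cKO cold 11 of 12 were lower than in WT cold (2.92% of all genes). Their part in the Eif4e3 values was not tested.

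The other 6 higher members were Eif4ebp3 (0.80 ± 0.17), Eif4a3 (0.70 ± 0.18), Eif2a (0.68 ± 0.19), Eif4a1 (0.58 ± 0.15), Eif4a2 (0.57 ± 0.14) and Eif1b (0.54 ± 0.15). None of these 6 passed with median-ratio or quantile scaling. Eif4a1 had 149 and 195.5 RPKM in cKO cold, against 119 and 109 RPKM in WT cold, and Eif4a2 had 95.2 and 88.9 RPKM, against 55.8 and 67.7 RPKM. Neither pair overlapped. Eif1 showed -0.13 and Eif5, the GTPase activator that acts on eIF2, -0.28. Both passed as lower only with median-ratio scaling, at -0.63 and -0.76.

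Most other regulators were not called in cKO cold. The kinases Eif2ak2, Eif2ak3 and Eif2ak4 showed 0.75 ± 0.28, 0.65 ± 0.24 and 0.62 ± 0.23. Eif4ebp1 had 32.4 and 28.1 RPKM in cKO cold, against 24.0 and 32.8 RPKM in WT cold, which overlapped, and Eif4ebp2 showed -0.04 ± 0.21. The eIF3 and eIF2B members did not pass either, with Eif3h at 0.38 ± 0.13, Eif3a at 0.30 ± 0.13 and Eif2b5 at 0.54 ± 0.17. Macrophage and fibroblast markers were higher in cKO cold (13 of 16 and 10 of 11 tested), where 23.6% of all genes were. The part of these markers in the results was not tested.

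The cKO cold inputs also differed from WT RT inputs in both genotype and temperature. Of 52 members, 2 were higher (8.38% of all genes) and 10 lower (24.7% of all genes). With median-ratio scaling these were 7 and 1 (13.4% and 15.3% of all genes), and with quantile scaling 8 and 7 (16.5% and 15.5%). Eif1a rose by 2.37 ± 0.23 and Eif2s1 by 0.53 ± 0.15, under all 3 scalings. Eif3f had 21.3 and 21.8 RPKM in cKO cold, near the WT cold libraries and far below WT RT, and fell by 1.47 ± 0.14, again under all 3 scalings. This comparison and those above share libraries.

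**Figure D3:**
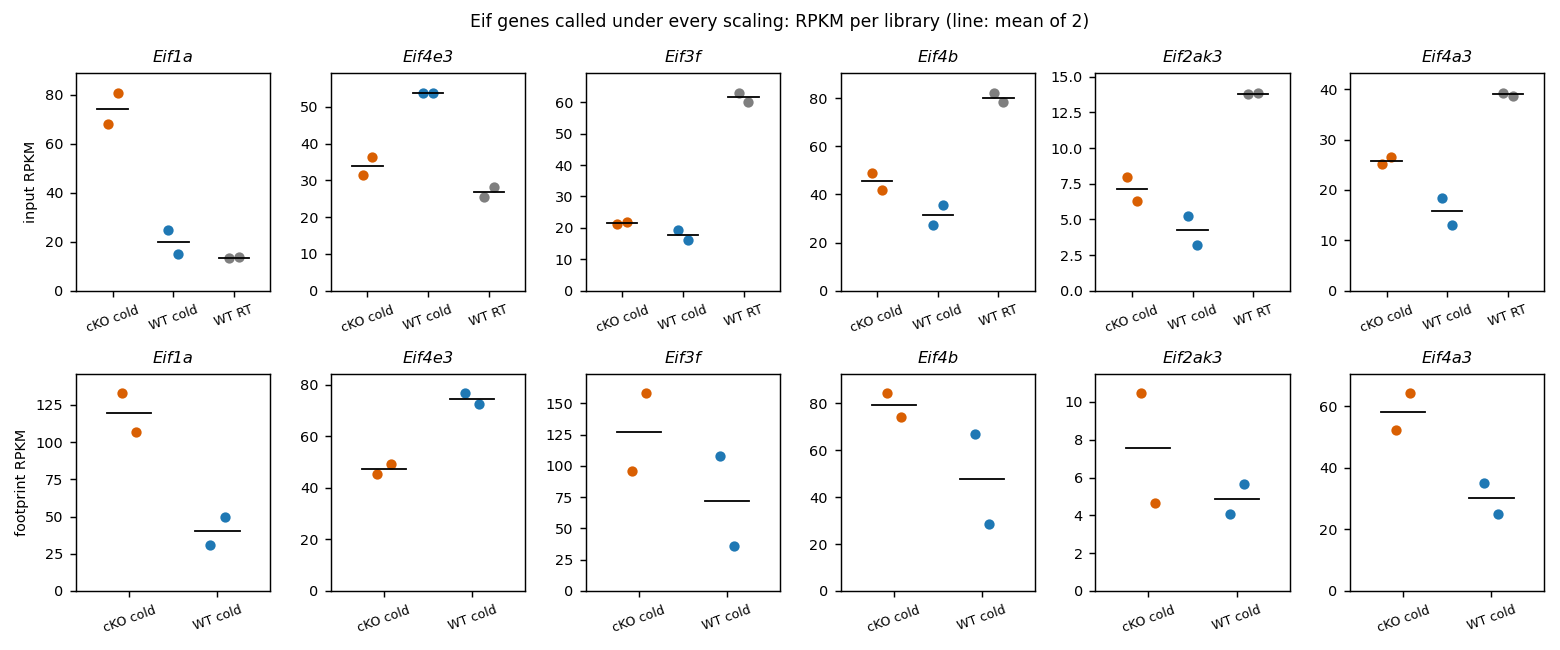
RPKM per library (points; line, mean of 2) of 6 Eif genes in input (top) for cKO cold, WT cold and WT RT and in footprints (bottom) for cKO cold and WT cold, each y axis starting at 0. Eif1a is highest in cKO cold in both kinds of library, and Eif3f, Eif4b, Eif2ak3 and Eif4a3 inputs are lower in both cold groups than in WT RT.

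m6A capture differed widely among Eif mRNAs, from Eif5b, captured well above its input, to Eif3m, captured far below it. Enrichment is the log2 ratio of m6A over input RPKM + 1. Of 52 members, 4 were enriched and 33 depleted in cKO cold (11.4% and 35.2% of all 13062 genes tested), 6 and 25 in WT cold (13.7% and 25.6%), and 5 and 34 in WT RT (16% and 34.6%). The members' median was -0.75 in cKO cold, -0.45 in WT cold and -0.80 in WT RT, against -0.30, -0.11 and -0.25 over all genes. In all 3 conditions 3 members were enriched (Eif5b, Eif3a and Eif4g3) and 24 depleted. The share of all genes called alike in all 3 conditions is not given here, so these counts have no background beside them. Since m6A and input values are both shares of their libraries, a negative ratio says less capture than the average read, not absence of m6A.

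Eif5b encodes the GTPase that joins the subunits. It had 76.1 and 73.7 RPKM in m6A against 14.1 and 14.0 RPKM in input in cKO cold, 51.7 and 54.4 against 13.7 and 13.3 RPKM in WT cold, and 48.1 and 41.5 against 16.8 and 15.3 RPKM in WT RT. Every m6A library stood above every input library. The enrichment was 2.34 ± 0.12 in cKO cold, 1.90 ± 0.12 in WT cold and 1.42 ± 0.12 in WT RT. Eif3a had 245 and 251.5 RPKM in m6A against 67.1 and 68.4 RPKM in input in cKO cold, 164 and 222 against 50.2 and 60.2 RPKM in WT cold, and 187 and 179 against 76.4 and 79.3 RPKM in WT RT. Its enrichment was 1.86, 1.78 and 1.22, each ± 0.15, in cKO cold, WT cold and WT RT.

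Eif4g3 was enriched by 0.87, 0.94 and 0.71 (each ± 0.13) in cKO cold, WT cold and WT RT, while the main scaffold gene Eif4g1 was not called in any condition. Eif1a was enriched in WT cold (0.92 ± 0.20) and WT RT (0.68 ± 0.20), and stood at -0.20 in cKO cold. Eif4b was enriched in cKO cold (0.58 ± 0.16) and WT cold (0.61 ± 0.16), and Eif2ak2 in WT cold and WT RT at 0.74 and 1.01 (each ± 0.26). Of the kinases, none was depleted in any condition.

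The 4 most depleted members in each condition were Eif3m and Eif3e, subunits of eIF3, and both eIF4A helicases. Eif3m had 4.93 and 3.97 RPKM in m6A against 27.0 and 24.6 RPKM in input in cKO cold, 2.82 and 3.52 against 22.9 and 28.2 RPKM in WT cold, and 3.40 and 3.67 against 39.6 and 34.0 RPKM in WT RT. The 2 kinds of library were far apart in each condition. The log2 ratio was -2.30, -2.67 and -3.06 (each ± 0.17) in cKO cold, WT cold and WT RT. Eif4a2 stood at -2.09, -2.04 and -2.82, Eif3e at -1.90, -2.28 and -2.56, and Eif4a1 at -1.88, -1.76 and -2.23. Of 13 eIF3 members, 9, 7 and 11 were depleted in cKO cold, WT cold and WT RT, and of 6 eIF2 subunits and tRNA carriers 5, 4 and 6. Over all genes the depleted shares were 35.2%, 25.6% and 34.6% in the same order.

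Longer gene models had higher ratios. Over the 52 members, Spearman's rho of the ratio with model length was 0.467 in cKO cold, 0.434 in WT cold and 0.378 in WT RT, against 0.094, 0.10 and 0.11 over all genes. These are descriptions across genes of the same libraries. Eif5b, Eif3a and Eif4g3 have models of 7798, 5126 and 8135 bases, against 1283 bases for Eif3m and 1227 bases for Eif4a2, where the median member has 2446 bases. The model lengths are those implied by the RPKM values.

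**Figure D4:**
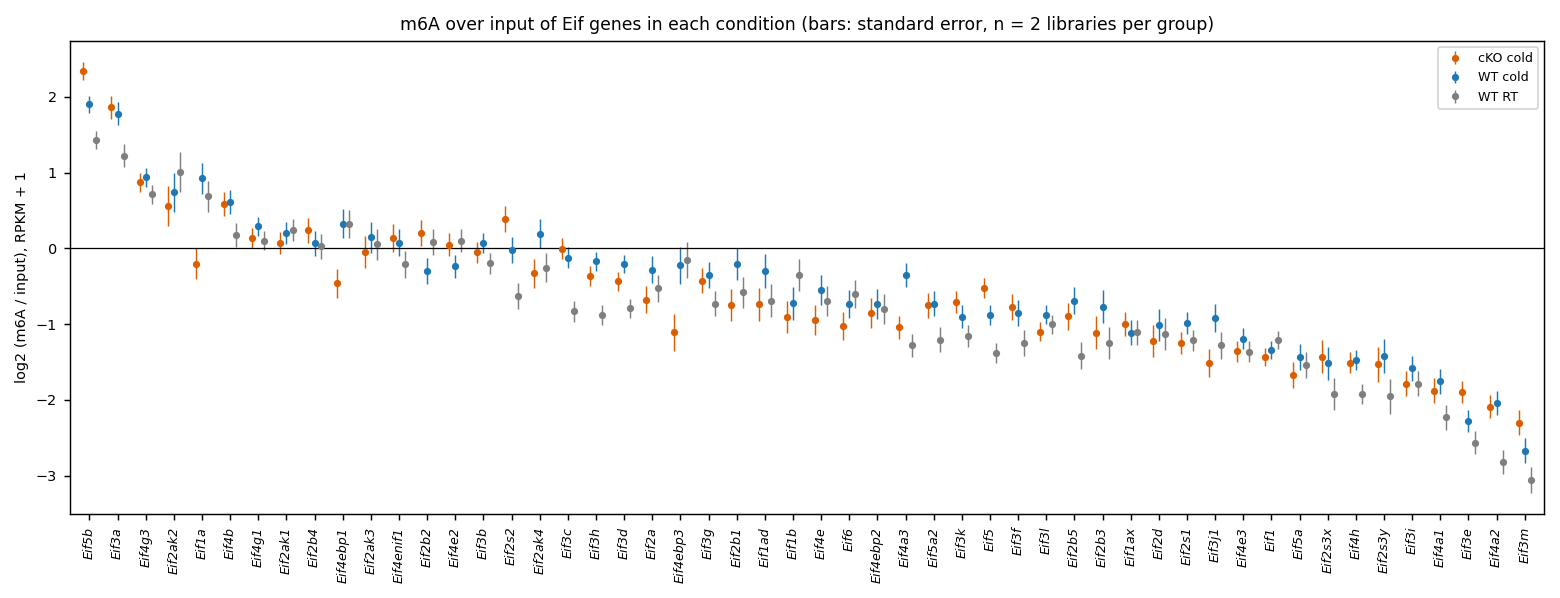
Log2 ratio of m6A over input RPKM + 1 (y axis, bars standard error, n = 2 libraries per group) for each tested Eif gene in cKO cold, WT cold and WT RT. Eif5b and Eif3a are highest in all 3 conditions and Eif3m is lowest in all 3.

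In the main fit, which did not pair libraries, no Eif gene passed the test of a change in m6A enrichment between genotypes or temperatures. For cKO cold against WT cold, 0 of 52 members passed, where 0% of all 13062 genes did (limma, 6 members under an unadjusted p of 0.05, limma-voom on recovered reads 0). For WT cold against WT RT, 0 members passed, where 0.0612% of all genes did (limma, 11 members under an unadjusted p of 0.05, limma-voom 0). The smallest adjusted p of a member was 0.194 and 0.172. With input and m6A libraries of the same number paired, 2 members were lower in cKO cold than in WT cold, Eif1a at -1.13 and Eif4ebp1 at -0.79, where 3.04% of all genes were lower and 0.0612% higher. In the same paired fit 4 members were higher in WT cold than in WT RT, Eif4a2, Eif3c, Eif3h and Eif3a, where 1.7% of all genes were higher and 0.367% lower.

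Eif1a m6A values were 68.8 and 59.8 RPKM in cKO cold, 41.2 and 34.1 RPKM in WT cold and 22.6 and 21.9 RPKM in WT RT. They were thus highest in cKO cold, as were its inputs, and less so than its inputs. Eif4ebp1 had 22.3 and 21.1 RPKM of m6A in cKO cold, against 30.3 and 41.4 RPKM in WT cold and 45.5 and 37.9 RPKM in WT RT, while its inputs overlapped between groups. In cKO cold its ratio was -0.46, against 0.33 in WT cold.

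**Figure D5:**
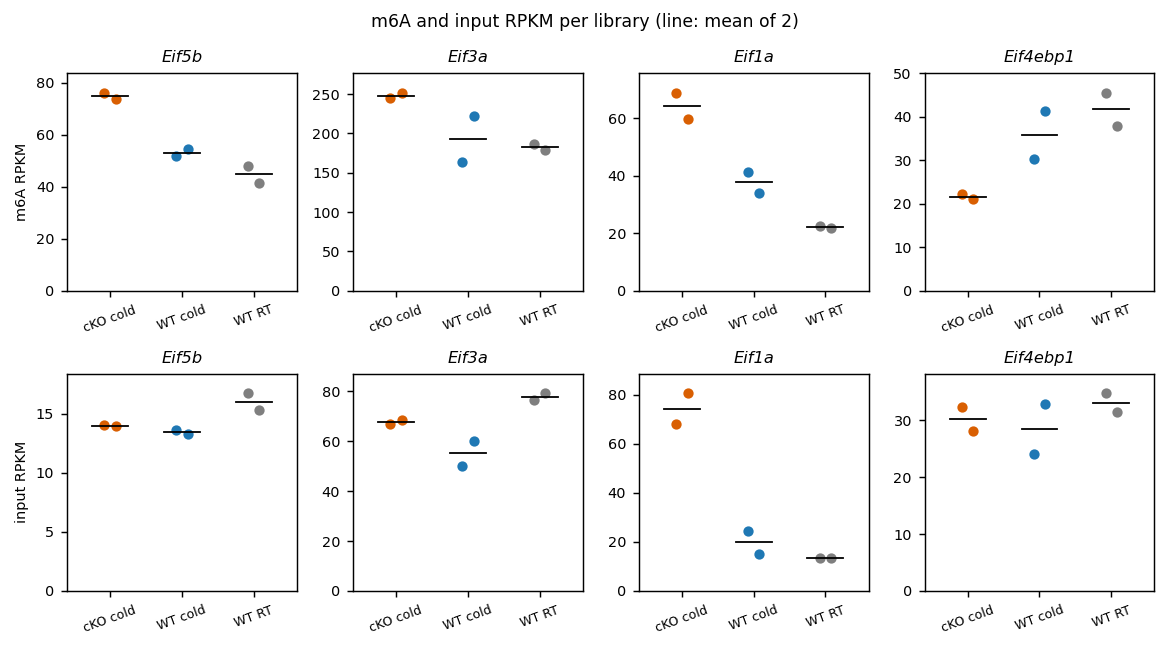
RPKM per library (points; line, mean of 2) in m6A (top) and input (bottom) libraries for Eif5b, Eif3a, Eif1a and Eif4ebp1 in cKO cold, WT cold and WT RT, each y axis starting at 0. The m6A points of Eif4ebp1 are lower in cKO cold than in both WT groups, while its input points overlap.

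Footprints count fragments held by ribosomes, in a library whose make-up differed from its input. T and B cell markers summed to 472 to 1420 RPKM in cKO cold footprints and 464 to 659 RPKM in WT cold footprints, far above the inputs of the same conditions, and macrophage markers to 5070 to 8560 RPKM and 3290 to 3970 RPKM. Their part in the footprint results was not tested. Eif genes took 0.814% and 0.848% of footprint reads in cKO cold and 0.704% and 0.557% in WT cold. The ranges did not overlap.

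Of 52 members, 2 were higher in cKO cold than in WT cold footprints (5.61% of all 12763 genes) and 0 were lower (1.54%). Eif5a2, 1 of these 2, was tested only through the cKO cold footprints, where it was high. The median was 0.44 over the members and 0.42 over all genes. With median-ratio scaling 1 was higher and 2 lower (0.945% and 2.79% of all genes), and with quantile scaling likewise 1 and 2 (1.03% and 2.22%). With libraries of the same number paired, 6 were higher and 1 lower (16.4% and 3.05%). Leaving out 1 library at a time gave 0 to 6 calls, with 6 without WT cold footprint replicate 1, 0 without WT cold replicate 2 or cKO cold replicate 1 of the footprints, and 1 without any other library.

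Eif1a had 133 and 107 RPKM in cKO cold footprints, against 31.0 and 49.5 RPKM in WT cold footprints, without overlap. It rose by 1.58 ± 0.31 (limma adjusted p = 0.0275), but with median-ratio or quantile scaling the limma adjusted p was 0.108 and 0.08, and it passed in 1 of 8 fits that left out 1 library. Eif5a2 was listed at 3.01 and 4.12 RPKM in cKO cold footprints and at 0 in both WT cold footprints, from few reads, so no fold is given. On the deposited scale it reached 1 RPKM only in the cKO cold footprints of this fit. It was thus tested only through the group where it was high. Its limma adjusted p of 0.0115 and its call under all 3 scalings are therefore no support. Without either cKO cold footprint library it no longer reached the level for testing. Its inputs of 0.79 and 0.97 RPKM in cKO cold overlapped those of 0.64 and 0.89 RPKM in WT cold. Eif4e3 had 45.2 and 49.4 RPKM in cKO cold footprints, against 76.7 and 72.6 RPKM in WT cold footprints, apart as in input, but at -0.65 ± 0.20 it did not pass (limma adjusted p = 0.0792). It was lower with median-ratio and quantile scaling and with pairing.

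Other fixed members were not called. Eif4ebp1 footprints were 259.5 and 195 RPKM in cKO cold, against 117 and 179 RPKM in WT cold. Eif1 had by far the most per length, 1676 and 1514 RPKM in cKO cold and 1791 and 1178 RPKM in WT cold, which overlapped. Eif3j1 was listed at 0 in all 4 footprint libraries although its inputs held 2.82 to 5.74 RPKM in these groups. Eif1ax had 525 and 387 RPKM in cKO cold and 465 and 292 RPKM in WT cold footprints, far above Eif1a, the reverse of the order in input.

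Footprints over input is used as an index of translational efficiency, but here the 2 kinds of library differed in make-up, as given above. The ratio therefore cannot be read as efficiency alone. Its change between cKO cold and WT cold passed in 0 of 52 members, where 0% of all genes passed (limma, 2 members, Eif5b and Eif5a2, under an unadjusted p of 0.05, and none passed with pairing, with median-ratio or with quantile scaling). Eif5a2 was tested only through the cKO cold footprints, where it was high.

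Other genes of translation were set beside the Eif genes from lists. Of 15 elongation and termination factors, 7 were higher and 0 lower in cKO cold than in WT cold (23.6% and 2.92% of all genes), and 0 rose and 8 fell in WT cold relative to WT RT (6.52% and 51.2% of all genes), with medians of 0.58 and -0.82. With median-ratio scaling these counts were 1 and 0, and 3 and 4, with medians of 0.09 and -0.14. Eef1g, a subunit of the factor that recharges eEF1A, had 79.4 and 96.7 RPKM in cKO cold, 41.8 and 36.1 RPKM in WT cold and 135 and 131 RPKM in WT RT. Eef2, the translocase, had 406 and 392, 256.1 and 275.5, and 680 and 653 RPKM in the same groups. Neither gene overlapped between groups, and both calls in the cold held with median-ratio scaling (-1.01 and -0.57).

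Of 24 other initiation factors and regulators, 0 rose and 10 fell in WT cold relative to WT RT (6.52% and 51.2% of all genes). With median-ratio scaling 8 were higher and 3 lower (19.1% and 20.2% of all genes). Pdcd4, an inhibitor of eIF4A, fell by 1.80 ± 0.17, Gigyf1, a partner of eIF4E2, by 1.75 ± 0.21 and Pabpc1, the poly(A)-binding protein, by 1.43 ± 0.22, and these 3 were the lower ones with median-ratio scaling.

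Of 23 tested genes of mTORC1 signalling, 2 rose and 8 fell in WT cold relative to WT RT (6.52% and 51.2% of all genes, median -0.14), and the balance turned to 10 higher and 2 lower with median-ratio scaling (19.1% and 20.2% of all genes, median 0.59). Deptor, an inhibitor bound to mTOR, had 56.8 and 59.2 RPKM in WT cold, against 19.5 and 25.4 RPKM in WT RT, and rose by 1.34 ± 0.18, while Sesn3 and Sesn1, inhibitors of mTORC1, fell by 1.98 ± 0.16 and 1.91 ± 0.27. These 3 calls held with median-ratio scaling. In cKO cold against WT cold, 6 were higher and 1 lower (23.6% and 2.92% of all genes), and 1 higher and 2 lower with median-ratio scaling. Sesn1, Sesn3 and Rheb, the GTPase that activates mTORC1, rose by 1.38 ± 0.27, 0.91 ± 0.16 and 0.73 ± 0.22, and of these Sesn1 alone kept its call with median-ratio scaling (limma, adjusted p = 0.0489). Mtor had 17.4 and 21.5 RPKM in cKO cold, against 31.9 and 35.9 RPKM in WT cold, and fell by 0.77 ± 0.16, a call that held with median-ratio scaling (-1.26).

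Of 16 regulators and targets of the integrated stress response, the program set off by phosphorylated eIF2 alpha, 2 rose and 3 fell in WT cold relative to WT RT (6.52% and 51.2% of all genes), and 5 were higher and 2 lower with median-ratio scaling. Asns, asparagine synthetase, had 35.3 and 31.3 RPKM in WT cold, against 15.1 and 13.9 RPKM in WT RT, and rose by 1.14 ± 0.20. Gcn1, the activator of the kinase Eif2ak4, fell by 1.29 ± 0.16. In cKO cold against WT cold, 3 were higher and 1 lower (23.6% and 2.92% of all genes), and 0 higher and 1 lower with median-ratio scaling. Phgdh, an enzyme of serine synthesis, rose by 0.89 ± 0.12 in input and 1.70 ± 0.27 in footprints. With median-ratio scaling the input call was lost (0.41, limma adjusted p = 0.0776) and the footprint call held (1.22, limma adjusted p = 0.027).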

How the data were processed

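Values are RPKM made by the authors and deposited as 1 matrix of 17883 genes and 16 libraries in 8 groups of 2. The submitters' processing notes name HISAT2 and mm10. The counting tool, its use of strand and the annotation are not given in the sources used here. Because RPKM steps are whole reads, reads were recovered for 100% of genes (tolerance 0.001 reads), 3895031 to 8673393 per input, 4883129 to 6426541 per m6A and at least 1676208 to 2461267 per footprint library.

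Tests used limma 3.58.1 in R 4.3.3 on log2(RPKM + 1), two-sided, with Benjamini-Hochberg adjustment over all genes kept (1 RPKM or more in 2 or more of the fitted libraries) and a threshold of 0.05. The 1 added RPKM shrinks fold changes of low genes. The 6 inputs were fitted together, as were the 12 input and m6A libraries and the 8 cold input and footprint libraries. Changes of a ratio were interaction terms. The fits were tested on simulated data. Errors are standard errors.

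Replicate numbers were checked for pairing: deviations from group means over 8464 genes correlated at 0.305 to 0.656 between libraries of the same condition and number, and at -0.0994 to 0.0779 across conditions. The numbers were therefore taken as pairs inside each condition in an alternative fit, the replicate block, while the main fits used no pairs. In the fit of inputs alone, that block was a term for replicate number shared by the conditions. The labels do not state such pairs.

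Members were chosen by name. The roles, companion lists and marker lists were chosen with earlier results of these data known. Genes named were the called members by size of change, up to 25 per comparison, and 20 fixed members. Others named to complete a family or count were chosen after their values were seen. The fixed member Eif4g2 was not analysed here. Alternatives were pseudocounts of 0.1 and 5, no filter or 5 RPKM, median-ratio and quantile scaling, the replicate block, leaving out each library, and limma-voom on recovered reads. The last was chosen after seeing the data. Sequences are from RefSeq (GRCm38.p6).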

Additional observations from a re-analysis of the deposited data

Results flagged for a closer look

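The change of m6A over input differed between groups for 6 Eif genes when libraries of the same condition and number were paired. Eif1a changed by -1.1286 ± 0.19 (limma adjusted p = 0.0237) and Eif4ebp1 by -0.7887 ± 0.12 (limma adjusted p = 0.0182) in cKO cold against WT cold. In WT cold against WT RT, Eif4a2 changed by 0.7858 ± 0.13, Eif3c by 0.7092 ± 0.14, Eif3h by 0.7045 ± 0.12 and Eif3a by 0.5567 ± 0.11, with limma adjusted p from 0.0306 to 0.0455. Without the pairing the same values had larger standard errors and 0 of the 6 passed (limma, with limma-voom 0).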

How the results depend on the processing

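In WT cold against WT RT input, 27 members were called, and 13 to 29 with 1 library left out. Median-ratio scaling turned 11 called members to positive values: Eif4a2 0.0088, Eif4ebp2 0.0417, Eif3g 0.0530, Eif2b2 0.0829, Eif4h 0.0968, Eif2b5 0.1052, Eif3d 0.1078, Eif3m 0.2143, Eif3a 0.2469, Eif2ak1 0.2553 and Eif3b 0.3178. Quantile scaling turned 4: Eif2b5 0.1057, Eif2b2 0.1363, Eif5a2 0.1626 and Eif2ak1 0.2962. The cause was not tested. In cKO cold against WT cold input, 8 members were called, 4 with no filter, 4 with median-ratio and 2 with quantile scaling, and 1 to 9 with 1 library left out. In cKO cold against WT RT input, 12 were called and 2 to 17 with 1 library left out. In footprints, 2 were called, 1 with no filter, 1 with a filter of 5 RPKM, 0 to 6 with 1 library left out and 7 with the replicate block. The replicate block paired libraries within a condition, except in the fit of inputs alone, where it was a term for replicate number. It called 4 members for the change of m6A over input in the cold and 2 in cKO cold, against 0 of each without it. Apart from these and the footprint count, it moved no count by over 1.5 times. Where a library was left out, its group's lone library was assumed to vary like the others. Depth limits low genes, such as Eif5a2 with 223 reads over the 6 inputs, and the 2 libraries per group limit all tests.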
